A study of Drosophila melanogaster with 16 samples.

Results

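The 7 wild-type embryos among the 16 RNA-seq samples of the series were examined for which genes were most abundant late in embryogenesis and which differed most from embryo to embryo. They were chosen by their label alone. The Asx0 table holds 5 Asx0 embryos and 3 wild-type embryos, and the SceI48A table holds 4 SceI48A embryos and 4 other wild-type embryos. Asx0 embryos were zygotic mutants, in a w background, for a null allele of Asx, the partner of the deubiquitinase Calypso. In SceI48A embryos, Sce, the E3 ubiquitin ligase of Polycomb repressive complex 1, carried a mutation that removes its catalytic activity (maternal and zygotic product alike). The wild-type flies were Oregon-R, and every sample was poly(A) RNA of a single embryo at stage 16, 15 to 16 h old, so that embryos are the replicates throughout. The labels give no sex, and nothing besides the title tells the embryos of a group apart. More embryos had been sequenced, and the authors retained those that resembled each other in stage by morphology and principal component analysis, a choice that can make the spread between them smaller than in unselected embryos.

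By stage 16 a Drosophila embryo has formed its organs: body wall muscles contract, the nerve cord condenses, and the epidermis and tracheae secrete an apical extracellular matrix of chitin and protein that becomes the larval cuticle. Cuticle genes are switched on in a rapid sequence during these hours. Proteins of the Cpr and Lcp families bind chitin, Tweedle proteins are a second family of structural cuticle proteins, and Osiris proteins are transmembrane proteins of cuticle-secreting epithelia. Ribosomal proteins and mitochondrial enzymes, in contrast, are made in every cell.

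Each table lists 13754 genes with a log2 normalized read count per embryo, and the tables were normalized apart from each other, so that levels are compared within a table and between tables only by rank. The log2 values behaved like regularized logarithms, which are shrunken so that differences of weakly expressed genes are smaller than in the reads. The labels do not state this, and it was inferred from the values. The depth of the libraries is unknown. Markers of late tissues were present in all 7 wild-type embryos, with myosin heavy chain (Mhc) between 17.28 and 17.64 and the neuronal gene elav between 11.90 and 12.68 on the log2 scale. The midgut maltase gene Mal-A1 lay between 2.25 and 3.24, and larval Sgs3 and Lsp1alpha and cellularization gene nullo lay at or below 0. In the SceI48A table, wild-type replicate 1 stood apart. Its values deviated from the gene means by 0.171 (root mean square, log2 units), against 0.0965 to 0.104 in the other 3 embryos, and it was the farthest embryo from the mean for 52.4% of genes. Counts of variable genes are given with and without it below.

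The most abundant messages of the wild-type embryos, as level per kilobase of exon, were those of muscle, ribosomes, mitochondria and cuticle. The 100 highest genes held 38.3% of the summed level in the Asx0 table and 38.8% in the SceI48A table, and 93 genes were among the 100 highest in both, which is 0.678% of the 13722 genes with a known exon length. Of these 93 genes, 67 encoded cytoplasmic ribosomal proteins. Across all genes with a length, the ranks of the levels in both tables had a Spearman correlation of 0.983, given as a description across genes.

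Act57B, a muscle actin, ranked 1 in both tables. Its log2 values were 17.63, 17.69 and 17.64 in the Asx0 table and 18.05, 18.03, 18.01 and 18.03 in the SceI48A table, and it made up 1.37% of the summed level in each. RpL41, a very short protein of the large ribosomal subunit, ranked 4 and 2, with 1.03% and 1.17%. The mitochondrial cytochrome c oxidase gene mt:CoIII ranked 3 in both tables, with 1.04% and 0.991%, and mt:CoI ranked 6 in both. Messages of general metabolism thus stood beside those of a structural muscle protein at the top of the order. The translation elongation factor eEF1alpha1 ranked 10 and 8. Among cuticle genes, Cpr65Ea ranked 5 and 14 and TwdlD 7 and 21. CG2962, a gene named only by its number, ranked 2 and 4.

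By list, the 88 cytoplasmic ribosomal protein genes held 24.9% of the summed level on average in the Asx0 table (24.5% to 25.5% over 3 embryos) and 26.1% in the SceI48A table (25.1% to 28.7% over 4 embryos, the highest in replicate 1, and 25.2% on average without it). Sarcomere genes held 3.55% and 3.48%, the mitochondrially encoded genes 3.09% and 3.03%, nuclear subunits of oxidative phosphorylation 2.74% and 2.66%, and translation factors 2.15% and 2.27%. The plot of shares by list and embryo shows them beside the cuticle lists. Tweedle genes held 2.93% to 3.35% in the Asx0 table and 2.33% to 2.51% in the SceI48A table. Cuticle protein genes held 4.33%, 4.39% and 3.54% in wild-type replicates 1 to 3 of the Asx0 table. In replicates 1 to 4 of the SceI48A table they held 2.37%, 1.88%, 2.07% and 1.84%. Osiris genes lay the other way round, at 0.473%, 0.582% and 0.833% in the Asx0 table and 1.20%, 1.40%, 1.41% and 1.41% in the SceI48A table. Other lists also separated by table, such as midgut digestive enzymes at 0.0516% to 0.0662% in the Asx0 table and 0.0373% to 0.0397% in the SceI48A table. How many lists did so was not counted. The origin of the embryos and the separate normalization cannot be told apart here, and in whole embryos fewer cells of a type cannot be told apart from less RNA per cell.

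**Figure D1:**
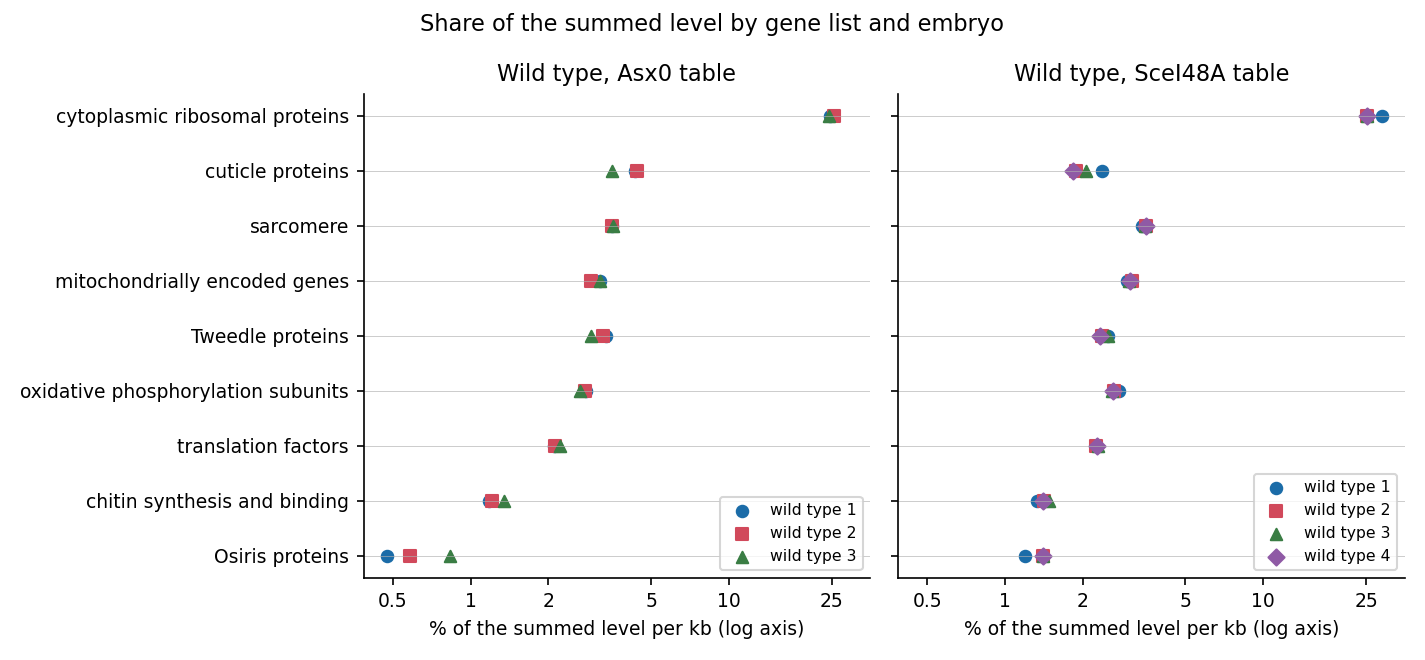
Share of the summed level per kilobase held by 9 gene lists (percent, log axis) in each wild-type embryo of the Asx0 table (left, 3 embryos) and of the SceI48A table (right, 4 embryos); each symbol is an embryo. Ribosomal protein genes lay at 24.5% to 28.7%, and the Osiris and cuticle protein lists showed the widest separation between embryos and tables.

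To rank genes by variability at like level, the SD of the log2 values between wild-type embryos was divided by the usual SD of genes at the same mean level, read from a smooth curve. This was done for the 8472 genes with a mean wild-type value of at least 6 in both tables. The median SD was 0.0852 in the Asx0 table (n = 3 embryos) and 0.105 in the SceI48A table (n = 4 embryos). The highest 5% of genes in each table, 424 genes, were called variable. They began at 2.89 times the usual SD in the Asx0 table, where l(1)G0196 lay just inside at 2.885 times and Act5C just outside at 2.882 times, and at 2.30 times in the SceI48A table. An SD from 3 or 4 embryos is imprecise, so genes were followed up when they were variable in both tables, which share no embryo.

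**Figure D2:**
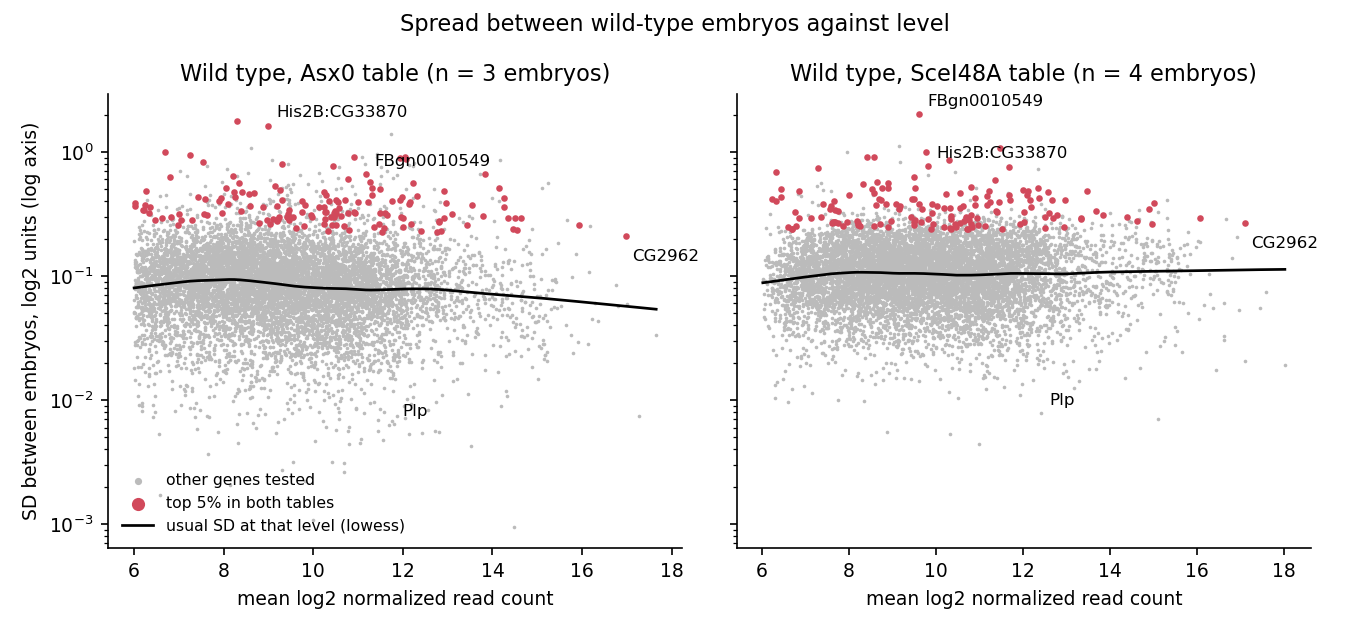
SD between wild-type embryos (log2 units, log axis) against mean log2 normalized read count for the 8472 genes tested, in the Asx0 table (left, n = 3) and the SceI48A table (right, n = 4). Red points are the 146 genes in the top 5% of both tables and the black line is the usual SD at each level; CG2962 is the most abundant of the variable genes and Plp is among the steadiest.

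A set of 146 genes was variable in both tables, 1.72% of those tested and 34.4% of each list of 424. Across all tested genes, the relative SD of one table correlated with that of the other at 0.182 (Pearson; Spearman 0.159), a description across genes that are not independent. The median ratio of the highest to the lowest wild-type embryo was 1.56 (Asx0 table) and 1.67 (SceI48A table) among the 146 genes, against 1.12 and 1.18 over all tested genes. These ratios are on a scale that appeared shrunken. The count leaned on single embryos. Without wild-type replicate 3 of the Asx0 table, 91 genes were variable in both tables, 82 of them from the 146, and without replicate 1 of the SceI48A table there were 140, 99 of them from the 146. With both of these embryos left out, a setting chosen after seeing the data, 99 genes were variable and 53 of the 146 remained.

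Among the lists, that of cuticle protein genes held the most variable genes. Of 42 tested cuticle protein genes, 11 were variable in both tables, as were 5 of 20 Tweedle genes and 3 of 10 Osiris genes. The share over all tested genes was 1.72%. Other lists of the cuticle and apical matrix held 0 of 28 genes of chitin synthesis and binding, 0 of 9 zona pellucida protein genes and 1 of 15 tanning and pigment genes. The short lists of peroxiredoxins and replicated histones had 2 of 7 each. Among the lists of general functions none of 83 cytoplasmic ribosomal protein genes, 72 mitochondrial ribosomal protein genes, 66 oxidative phosphorylation genes, 23 sarcomere genes, 26 neuronal genes, 31 Polycomb and trithorax group genes, 24 cell cycle genes and 8 HOX genes was. The median relative SD, as log2 of the ratio to the usual SD, was 1.58 (Asx0 table) and 1.04 (SceI48A table) for cuticle protein genes and 1.78 and 0.65 for Tweedle genes, against 0.02 and 0.02 over all tested genes. For Osiris genes it was 2.55 and -0.04. In the top 5% were 9 of 10 Osiris genes in the Asx0 table and 3 of 10 in the SceI48A table, and none of them was variable in both without replicate 3 of the Asx0 table. Without that embryo 5 cuticle protein genes and 3 Tweedle genes were, and without replicate 1 of the SceI48A table there were 10 and 6. At a share of 1.72% over all tested genes, a count of 0 does not make a list steady. In the Asx0 and SceI48A tables taken singly, the top 5% held 1 and 9 of 83 ribosomal protein genes and 5 and 2 of 28 chitin genes. They held 2 and 1 of 9 zona pellucida genes, 2 and 0 of 8 HOX genes and 0 and 1 of 72 mitochondrial ribosomal protein genes.

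Lcp65Ag1, a larval cuticle protein gene on 3L, had log2 values of 14.43, 14.49 and 13.83 in wild-type replicates 1 to 3 of the Asx0 table and 12.71, 11.82, 12.33 and 11.65 in replicates 1 to 4 of the SceI48A table. Replicate 3 was the low embryo in the Asx0 table, and replicate 1 the high embryo in the SceI48A table. Its neighbour copy Lcp65Ag3 was likewise lowest and highest in these embryos, while Lcp65Ag2, with 13.82, 13.76 and 13.62 in the Asx0 table, was not variable there; reads of near-identical copies may have been split between them by the quantification. Cpr65Ax2, of the same cluster, gave 12.78, 12.31 and 11.03 in the Asx0 table and 9.62, 8.55, 9.04 and 8.37 in the SceI48A table, and TwdlB gave 14.61, 14.40 and 13.79 and then 13.17, 12.26, 12.75 and 12.12. Lcp65Ag1, Lcp65Ag3, Cpr65Ax2 and TwdlB were lowest in the same embryo of the Asx0 table and had replicates 1 and 3 above replicates 2 and 4 in the SceI48A table. Not every variable cuticle gene did so. Lcp65Ac, of the same cluster, gave 8.95, 9.55 and 9.18 and then 8.14, 7.45, 7.41 and 7.38, lowest in replicate 1 of the Asx0 table. Osi7 ran in the opposite order, with 7.987, 8.063 and 9.001 in the Asx0 table and 11.289, 12.329, 12.044 and 12.332 in the SceI48A table, and Osi6 likewise with 7.85, 7.70 and 8.31 and then 11.82, 12.72, 12.27 and 12.71. Lcp65Ag1, TwdlB and Osi7 left the variable set without replicate 3 of the Asx0 table, and Cpr65Ax2 did not.

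**Figure D3:**
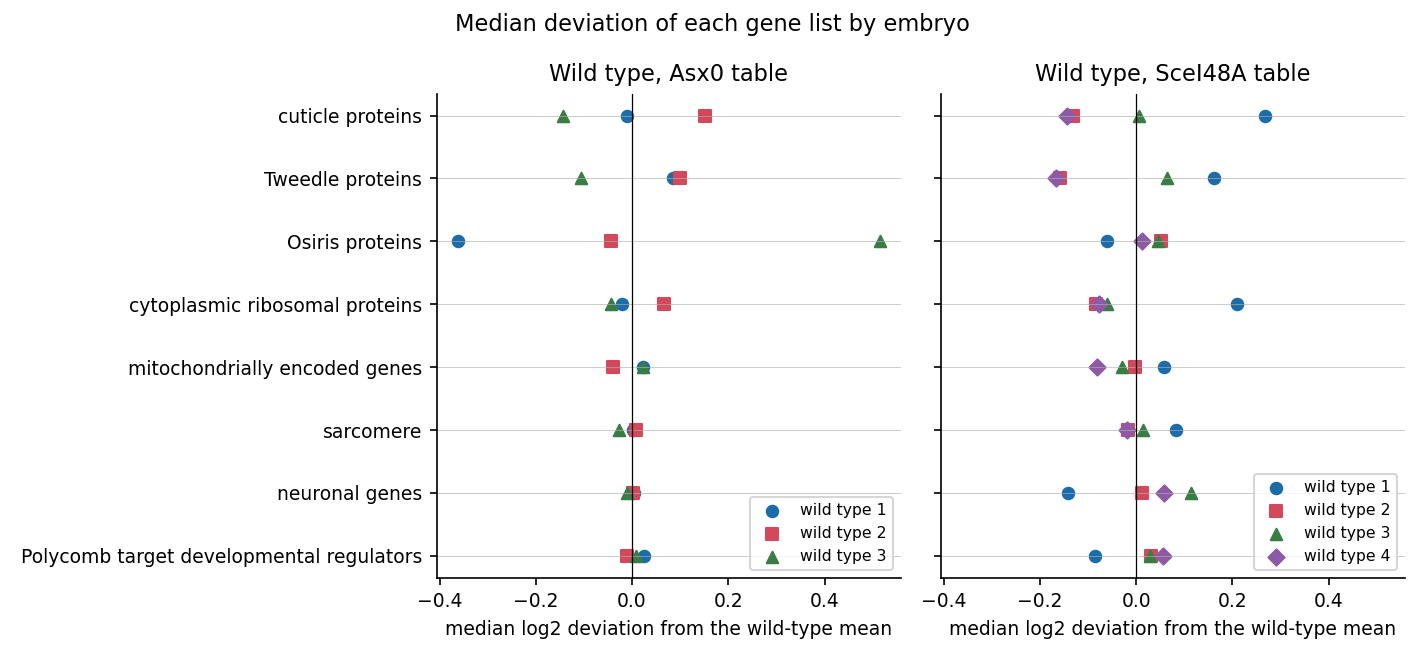
Median log2 deviation of the tested genes of 8 lists from their wild-type mean, for each wild-type embryo of the Asx0 table (left) and the SceI48A table (right). Cuticle protein and Tweedle genes were lowest in replicate 3 of the Asx0 table, where Osiris genes had a median of 0.51; in the SceI48A table cuticle protein, Tweedle and ribosomal protein genes were highest in replicate 1, with medians of 0.27, 0.16 and 0.21.

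The extremes of the embryos were then counted over the variable set. The 146 genes were chosen for their spread in these same embryos, so the shares describe the set and are no separate evidence of a shared order. Replicate 1 of the SceI48A table was the farthest embryo for 66.4% of the 146 genes and 52.4% of all tested genes. For replicate 3 of the Asx0 table these shares were 47.9% and 31.8%. Of the 146 genes, 43 were highest in replicate 1 of the SceI48A table and lowest in replicate 3 of the Asx0 table (29.5%, against 13.5% of all tested genes), among them 7 cuticle protein and 4 Tweedle genes. The reverse pattern was shown by 23 genes (15.8%), a share near the 15.1% of all tested genes, among them Osi6, Osi7 and Cyp18a1, which encodes an enzyme that inactivates ecdysone. Of the 43 genes, 39 had a higher rank in the Asx0 table, as did 41.3% of all tested genes. Both patterns are defined by replicate 1 of the SceI48A table and have no value without it. In replicate 1 of the SceI48A table, 82 of 83 ribosomal protein genes and 38 of 42 cuticle protein genes lay above their mean. In the same embryo 22 of 26 neuronal genes lay below it. The part of ribosomal protein and neuronal genes in the spread was not tested.

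Other variable genes act in sex determination and dosage compensation, 2 of 8 tested on that list. Sxl, the RNA-binding switch gene of female development, had log2 values of 12.18, 11.47 and 12.26 in the Asx0 table and 11.61, 12.04, 12.70 and 12.01 in the SceI48A table. msl-2, which encodes a subunit of the male dosage compensation complex and whose messenger RNA is a target of Sxl, gave 8.24, 9.09 and 8.37 and then 9.88, 9.73, 8.76 and 9.73. The embryo with the lowest Sxl of the Asx0 table had the highest msl-2, and the embryo with the highest Sxl of the SceI48A table had the lowest msl-2. As noted after these values were seen, 21 of the 146 genes (14.4%, against 9.95% of all tested genes) were, like Sxl, lowest in replicate 2 of the Asx0 table and highest in replicate 3 of the SceI48A table, and 14 of these 21 lie on the X chromosome. Over all tested genes this pattern held for 19.7% of X-linked and 8.01% of other genes. The reverse pattern, that of msl-2, was shown by 8 of the 146 (5.48%, against 8.17% of all tested genes). The pattern of Sxl overlapped that of Osi6 and Osi7 above, with Sxl and Cyp18a1 among the genes in both. The shares of the 146 were again counted in the embryos by which these genes were chosen. Both Sxl and msl-2 left the variable set without replicate 2 of the Asx0 table or without replicate 3 of the SceI48A table. No sex was assigned to any embryo.

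Many of the largest spreads belonged to genes of other functions. The gene with the largest spread by the lower of the tables' values was FBgn0010549 on 2R (9390165 to 9395281), given here by its FlyBase identifier, which encodes an ABC transporter. Its log2 values were 11.73, 11.36 and 10.44 in the Asx0 table and 11.43, 7.82, 11.29 and 7.91 in the SceI48A table, 8.61 and 19.2 times the usual SD. In the SceI48A table replicates 1 and 3 were thus high and replicates 2 and 4 low. Replicate 3 was the low embryo of the Asx0 table, and both hold for Lcp65Ag1 and TwdlB above. In mutant embryos the gene lay between 9.68 and 9.82 in 5 Asx0 embryos and between 7.24 and 7.71 in 4 SceI48A embryos, with log2 relative SDs of -0.57 and 0.99, outside the top 5% in both. It stayed in the variable set under all 18 alternatives, as did Cpr65Ax2, the only other gene of the 20 most variable to do so.

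Culd, on 3L, had log2 values of 7.81, 6.15 and 7.79 in the Asx0 table and, in the SceI48A table, 7.36 in replicate 1 and 5.93 to 6.01 in the other 3 embryos. Its values fell into a high and a low set. Replicate 2 alone was low in the Asx0 table and replicate 1 alone was high in the SceI48A table. Culd left the variable set without either of these embryos. Without replicate 1 its mean in the SceI48A table fell under the filter of 6, so its spread was not ranked. The histone gene His2B:CG33870 gave 9.81, 10.03 and 7.10 and then 10.52, 9.13, 10.44 and 9.18, and with His2A:CG33832 made up the 2 variable genes among 7 tested on the histone list. Replicated histone messages normally lack a poly(A) tail and these genes have many near-identical copies, so both values are uncertain. His2B:CG33870 left the variable set without replicate 3 of the Asx0 table.

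**Figure D4:**
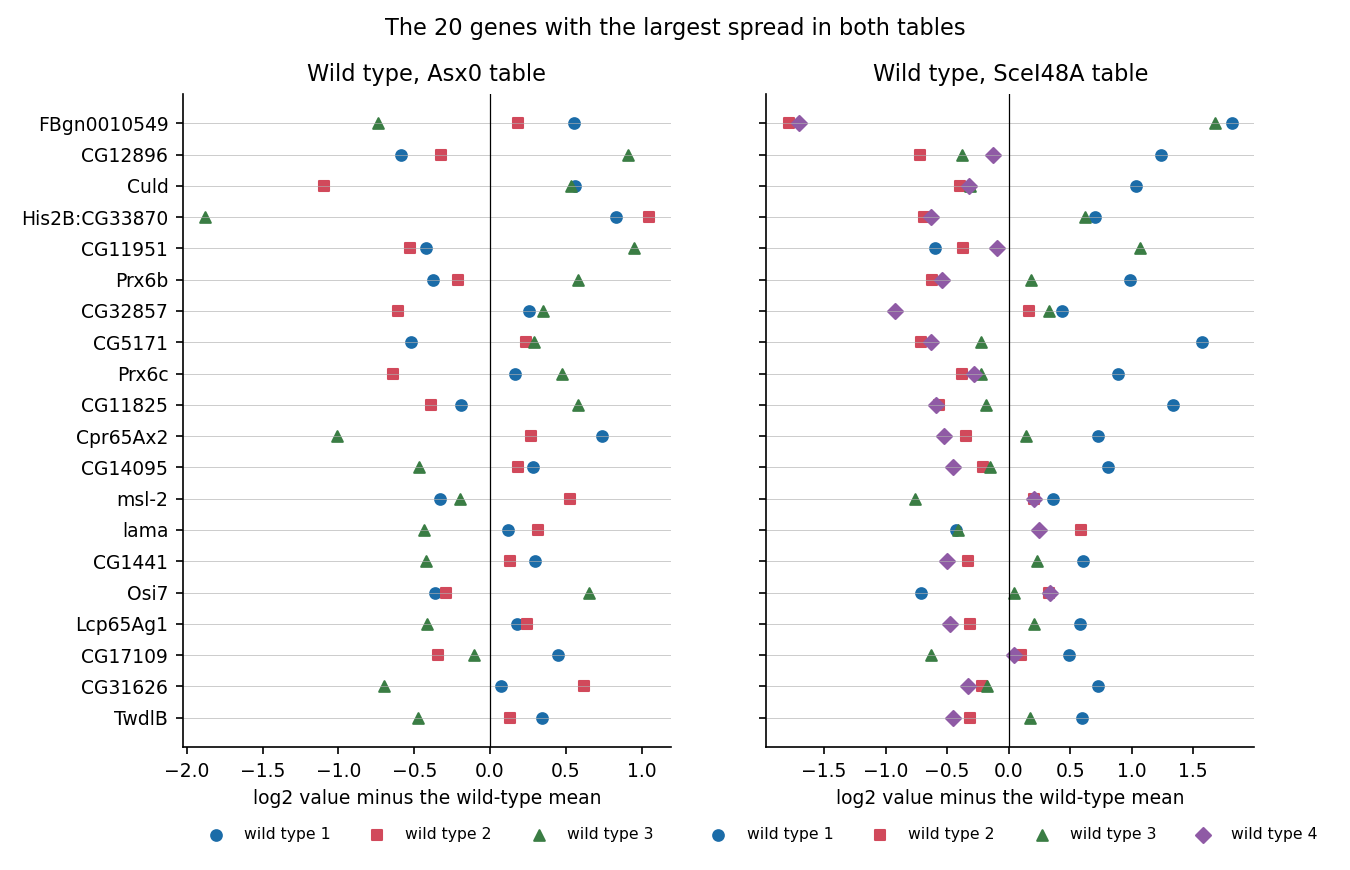
Log2 value minus the wild-type mean of the same table for the 20 genes with the largest spread in both tables, from the largest (top) to the smallest; each symbol is a wild-type embryo of the Asx0 table (left) or the SceI48A table (right), and the horizontal scales differ. For Cpr65Ax2, Lcp65Ag1 and TwdlB replicate 3 was lowest on the left and replicate 1 highest on the right, and FBgn0010549 separated into 2 high and 2 low embryos on the right.

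Some variable genes lay next to each other. Of the 146 genes, 53 (36.3%) had another of the set within 10 kb, in 18 clusters, a description with no comparison to other genes. The coordinates are those of the dm6 assembly. On 2R between 10418718 and 10427915 all 4 tested genes were variable: the peroxiredoxin genes Prx6c and Prx6b, with CG11825 and CG12896. Prx6b had log2 values of 10.93, 11.10 and 11.89 in the Asx0 table and 12.66, 11.05, 11.85 and 11.13 in the SceI48A table, and CG12896 had 8.72, 8.98 and 10.22 and then 11.53, 9.57, 9.91 and 10.16. Both were highest in replicate 3 of the Asx0 table and replicate 1 of the SceI48A table, unlike Lcp65Ag1 and unlike Osi7. Both left the variable set without replicate 3 of the Asx0 table, as did CG11825. Prx6c left it without replicate 1 of the SceI48A table or replicate 2 of the Asx0 table. In the Lcp65A region of 3L (6130386 to 6150857) 5 of 8 tested genes were variable, and among the Tweedle genes of 3R (26619118 to 26632956) 4 of 5 were. The pre-mod(mdg4) gene models of 3R supplied 6 variable genes of 11 tested in their interval, but these models overlap, and reads may have been divided between them. Chromosome arm 3L held 42 of the 146 genes, 28.8%, against 19.6% of the tested genes.

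The variable genes were otherwise diverse. Only 38 of the 146 were in any of the 41 lists, and 76 (52.1%) were known by a CG number alone, against 32.3% of tested genes. They were shorter, with a median of 1512.5 exon bases against 2335.5. Among the named ones were the crystal cell prophenoloxidase genes PPO1 and PPO2 (2 of 13 tested haemocyte genes), which act in melanization. PPO2 had log2 values of 12.261, 11.684 and 12.042 in the Asx0 table and 12.727, 12.002, 11.964 and 12.061 in the SceI48A table, replicate 1 being the high embryo of the SceI48A table. The pigment gene y gave 10.544, 9.861 and 9.999 and then 9.070, 8.813, 9.640 and 8.844. Hsp83, the fly Hsp90 chaperone, gave 13.36, 12.75 and 13.20 and then 13.14, 13.30, 13.76 and 13.17, lowest in replicate 2 of the Asx0 table and highest in replicate 3 of the SceI48A table, as Sxl was. toy, a Pax6 gene of eye development, was the only variable gene among 75 Polycomb target regulators. It gave 9.73, 9.15 and 9.34 and then 9.52, 9.75, 10.18 and 10.16.

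High level and high variability met in few genes: 4 of the 146 were also among the 100 most abundant in both tables, namely CG2962, CG31775, the chitin-binding cuticle protein gene Cpr64Ad and TwdlM. CG2962 on X, with log2 values of 17.08, 16.74 and 17.12 in the Asx0 table and 17.14, 16.90, 17.48 and 16.92 in the SceI48A table, was the most abundant of them, at 3.68 and 2.40 times the usual SD. TwdlM gave 16.08, 16.10 and 15.65 and then 15.49, 14.76, 15.16 and 14.64, again lowest in replicate 3 of the Asx0 table and highest in replicate 1 of the SceI48A table. CG9083, of the variable set, ranked 324 in the Asx0 table, with 11.04, 11.92 and 12.84, and 13 in the SceI48A table, with 15.73, 16.30, 15.94 and 16.33. The abundant genes nur and CG13159 were variable in the Asx0 table alone, where replicate 1 was low; the difference between the tables was not tested. nur gave 14.59, 15.65 and 15.45 in the Asx0 table and 16.36, 15.95, 15.98 and 16.01 in the SceI48A table, and CG13159 gave 12.96, 14.13 and 14.08 and then 14.70, 14.57, 14.69 and 14.63.

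At the other end, the gene with the smallest spread by the higher of the tables' values was Plp, which encodes the centrosomal pericentrin-like protein. Its log2 values were 11.81, 11.80 and 11.80 in the Asx0 table and 12.43, 12.43, 12.42 and 12.42 in the SceI48A table, 0.08 and 0.07 times the usual SD. Among the next 9 were the translation initiation factor eIF5B, the planar polarity gene Vang and the vesicle tethering gene Trs23, at 0.25 times the usual SD or less in both tables. The abundant muscle genes Mhc, at 0.13 and 0.66 times, and Act57B, at 0.62 and 0.17 times, also lay below the usual SD.

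The spread of the 146 genes was also measured between the mutant embryos, which are other embryos and were not used to rank the genes. Of the 146 genes, 90 (61.6%) were in the top 5% of relative SD between the 5 Asx0 embryos and 79 (54.1%) in the top 5% between the 4 SceI48A embryos. Of the 146 genes, 62 were in both and 39 in neither, whereas 137 of all 8472 tested genes were in both. Their median log2 relative SD was 1.54 in Asx0 embryos and 1.44 in SceI48A embryos, against 0.01 and 0.01 over all tested genes. Mutants and wild type of a table were normalized together, and any shrinkage of a gene's values would be common to them. A large SD in both is therefore not an independent check. Of the 11 cuticle protein genes 7 were in the top 5% of each mutant, as were 4 and 3 of the 5 Tweedle genes, both peroxiredoxin genes, and both Sxl and msl-2. FBgn0010549, Hsp83, toy, piwi and both glutathione transferase genes were among those that were not in the Asx0 mutants.

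**Figure D5:**
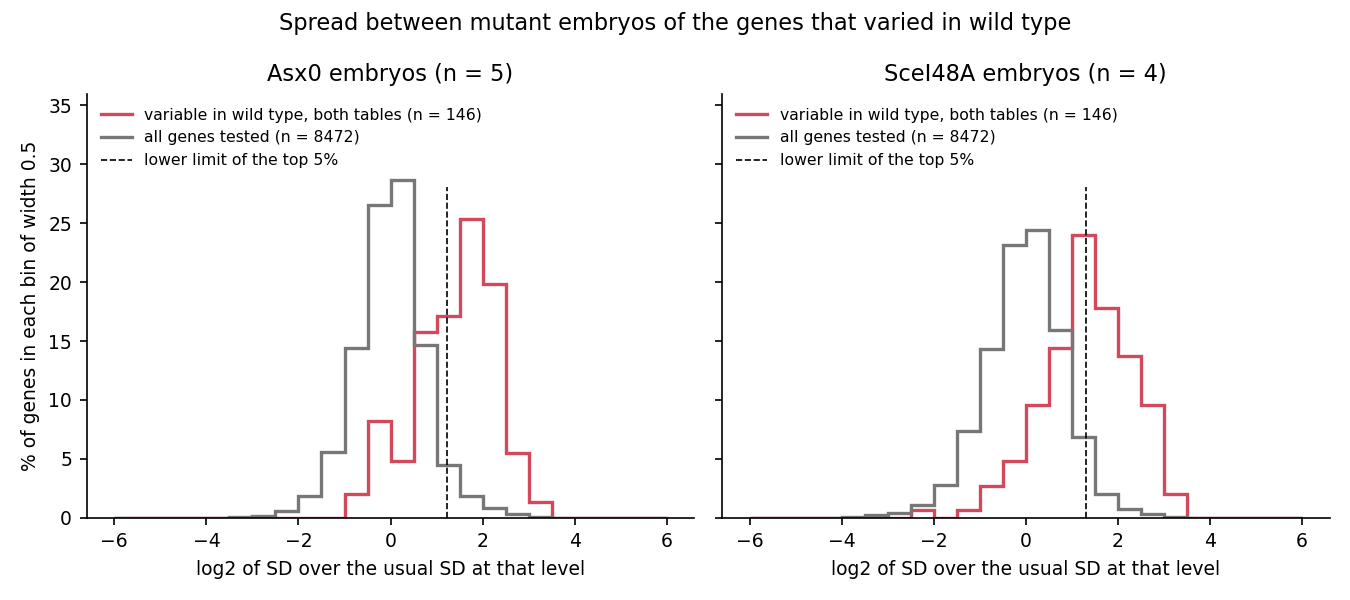
Distribution of the relative SD (log2 of SD over the usual SD at the same level, bins of width 0.5) between Asx0 embryos (left, n = 5) and SceI48A embryos (right, n = 4), for the 146 genes variable in wild type (red) and all 8472 genes tested (grey). Of the 146 genes, 61.6% and 54.1% lay beyond the dashed limit of the top 5%.

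Whether spreads differed between genotypes was asked across all 8472 genes with limma on the absolute deviations from the group means. In the Asx0 table, 37 genes passed an adjusted p of 0.05 (0.437%), 1 with a larger spread in Asx0 embryos and 36 with a larger spread in wild type. In the SceI48A table, 2 passed (0.0236%): Unc-115b, with an SD of 1.66 in SceI48A embryos against 0.24 in wild type (adjusted p = 0.000955 from limma), and FBgn0010549, with 0.22 in SceI48A embryos against 2.02 in wild type. The gene with the larger spread in Asx0 embryos was p24-2, with an SD of 1.67 in Asx0 embryos against 0.11 in wild type (adjusted p = 0.0119 from limma). FBgn0010549 was examined for its wild-type spread, so its difference is a description only. On simulated data without differences the unadjusted p-values of this test ran too small, and a plain F test of the variances, added after seeing the data, called 1 and 0 genes, with 550 and 680 at an unadjusted p under 0.05.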

How the data were processed

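Poly(A) RNA of single stage 16 embryos was sequenced by the authors, who ran Salmon for transcript abundance, tximeta for gene-level import and DESeq2 for normalization (build dm6, per the labels). The authors deposited log2 normalized read counts for each embryo in 2 tables. There were 877 genes (Asx0 table) and 1101 genes (SceI48A table) listed at 0 in all wild-type embryos, other low genes hardly varied, and the values behaved like regularized logarithms. Columns of the authors' own comparisons (fold changes and p-values) were not used. No count test was made, since the files give no depth. Replicates are separate embryos whose numbers only name them.

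Levels were taken back to the linear scale and divided by kilobases of union exon from the Ensembl annotation of the same assembly (13722 of 13754 genes matched by ID). SDs of log2 values were set against a lowess curve (fraction 0.3, statsmodels 0.14.6) of SD on mean level, over genes with a mean wild-type log2 value of at least 6 in both tables. The top 5% of each table were called variable. Spread in mutants and wild type was compared with limma 3.58.1 (R 4.3.3) on absolute deviations from the group mean, with a variance trend and Benjamini-Hochberg adjustment. Both steps were tested on simulated data. Genes named are the 20 highest levels, the 20 largest and 10 smallest spreads, the highest and most variable members of 41 lists and marker genes. The genes p24-2, Unc-115b, Lcp65Ac, Lcp65Ag2, Lcp65Ag3, Osi2, CG9083, CG31775, Cpr64Ad and TwdlM were chosen after their values were seen. Genes and lists were chosen with earlier results of these data known. Alternatives were other level filters, the range, a coefficient of variation, bins of 20, other top shares, quantile normalization, centring, other length measures, squared deviations, no variance trend, the replicate number as a block, and each embryo left out. The F test of variances and the joint removal of 2 wild-type embryos were added after seeing the data.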

Additional observations from a re-analysis of the deposited data

Results flagged for a closer look

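Of 158 named genes with a mean log2 value of at least 6 in the 4 wild-type embryos of the SceI48A table, 30 (19.0%) had 1 embryo far from the other 3, measured as its gap to the nearest embryo over the whole range. Chance gives about 1 in 20 for a gene picked without regard to its values, but many of these genes were named for their spread in the same embryos, so the shares are not comparable. The share over all tested genes was not computed. Replicate 1 was the farthest embryo from the mean for 52.4% of all 8472 tested genes, named or not. Groups of 3, as in the Asx0 table, were not examined. In replicate 1 the ribosomal and translation genes were highest, with log2 values of 15.26 for RpL23, 15.63 for RpL27A, 14.02 for RpL39, 15.94 for RpL41, 15.75 for RpLP2, 15.36 for RpS14a, 15.47 for RpS23 and 14.83 for eEF5. RpL41 lay at 15.10 to 15.14 in the other embryos. Also highest in replicate 1 were CG31626 at 14.21, Culd at 7.36, GstE4 at 7.05, ND-30 at 11.68, Obp83g at 13.42, PPO2 at 12.73, Prx6c at 12.24, SPARC at 14.09, TpnC47D at 13.49 and nur at 16.36. Neuronal and HOX genes were lowest there, with elav at 12.12 (12.59 to 12.68 in the others), futsch at 10.97, Ubx at 10.66, abd-A at 11.58 and Abd-B at 10.31, as were the chromatin remodelling gene osa at 11.94 and Mhc at 17.48.

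Replicate 3 stood apart for 5 genes. It was highest for GstT4 at 12.88, His3.3B at 14.70, Pxn at 12.98 and b at 7.25, and lowest for msl-2 at 8.76, against 9.73 to 9.88 in the others.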

How the results depend on the processing

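The count of 146 genes variable in both tables was 67 with the top 2.5 percent and 268 with the top 10 percent of each table, and ranged from 91 to 140 when 1 wild-type embryo was left out, lowest without replicate 3 of the Asx0 table. Level filters gave 104 genes (at least 8) and 179 (none). The count of 93 abundant genes shared by the tables stayed within 1.5 times under 9 alternatives. The shares of the larger lists moved by at least their SD between embryos in 12 cases and by less in 33 in the Asx0 table. In the SceI48A table they did so in 14 and 40 cases. The counts of variable list members moved by more than 1.5 times in 36 cases and did not in 126. Over the alternatives, the spread of the 20 most variable genes stayed past the threshold in 317 cases and fell below it in 36. Cases in which a gene missed the level filter were not counted. The test of spread between Asx0 embryos and wild type depended on its settings. The 37 genes became 0 with squared deviations, 0 without a variance trend, 633 with no filter on level, 1 with the F test of variances and 1 with the replicate number as a block. Leave-one-out counts ran from 2 to 674. They were high with 2 wild-type embryos left, where both deviations are equal by construction. Between SceI48A embryos and wild type, the 2 genes became 1 with squared deviations, 10 without a variance trend, 63 with no filter, 0 with the F test and 1 with the replicate block, and 1 to 3 on leave-one-out. Replicate numbers did not pair the embryos: same-number correlations of deviations ran from -0.0773 to 0.158 (Asx0 table) and from -0.143 to 0.105 (SceI48A table). Unknown depth and 3 or 4 embryos a table limit how well any SD is known.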
